A study of Mus musculus with 2 samples.

Results

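The S100 genes encode small calcium-binding proteins of the EF-hand type, and 8 of them were followed through mouse lung dendritic cells: S100a1, S100a4, S100a6, S100a8, S100a9, S100a10, S100a11 and S100a13. They were chosen by symbol, and all 8 were found among the 31053 features of both count matrices. The remaining 9 genes of the family in the matrices (S100a2, S100a3, S100a5, S100a7a, S100a14, S100a16, S100b, S100g and S100z) stayed under 10 CPM in both libraries. CPM is the number of unique molecular identifiers (UMIs, 1 per captured transcript) of a gene, scaled to a common total in each set of cells. The highest of these genes was S100a3, with 63 UMIs, or 1.63 CPM, in the cDC2 library.

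The data are 2 single-cell RNA libraries from untreated C57BL/6 mice aged 8 to 10 weeks. For one, lung cells were sorted for CD172a (type 2 conventional dendritic cells, cDC2, which present antigen mainly to helper T cells), and for the other for XCR1 (type 1, cDC1, which cross-present antigen to cytotoxic T cells). Each sort was made into 1 library (the cDC2 and the cDC1 library of the plots), the sources used here do not give the number of mice behind it, and effects of the sort and of the library cannot be told apart. The study describes the 2 kinds of cell in the steady state.

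Most S100 proteins pair into dimers inside the cell, open a binding groove when calcium rises, and hold target proteins such as annexins and myosin there. S100a8 and S100a9 are different in scale: their heterodimer, calprotectin, fills the cytosol of neutrophils, binds zinc and manganese, and acts as an alarm signal through Tlr4 and Ager once released. S100a4 is tied to cell movement, and S100a10 is the one member that has lost the ability to bind calcium and works as the partner of annexin A2.

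All 8 genes lie on chromosome 3 (GRCm38, the assembly also called mm10, with GENCODE vM21 annotation). S100a1 (ENSMUSG00000044080, chr3:90511034-90514392, minus strand) and S100a13 (ENSMUSG00000042312, chr3:90514435-90524581, plus strand) are transcribed away from each other with 42 bases between them. S100a4 (ENSMUSG00000001020, chr3:90603771-90606045, plus), S100a6 (ENSMUSG00000001025, chr3:90612882-90624181, plus), S100a8 (ENSMUSG00000056054, chr3:90668978-90670035, plus) and S100a9 (ENSMUSG00000056071, chr3:90692632-90695721, minus) follow, so that 6 members and 6 other family genes fill 185 kb. S100a11 (ENSMUSG00000027907, chr3:93520488-93526287, plus) and S100a10 (ENSMUSG00000041959, chr3:93555080-93564643, plus) lie apart from that group. S100a4 overlaps the annotated gene Gm42674, so reads of the 2 could be confused if the counting allowed it, and no other member overlaps an annotated gene.

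After filtering, 2835 cells with 38613693 UMIs remained in the cDC2 sort and 2574 cells with 35071861 UMIs in the cDC1 sort, with medians of 12655 and 12866 UMIs per cell. The libraries share 5 cell barcodes among the kept cells. By their sort markers, 2142 of 2835 cells of the cDC2 sort had 5 or more of 10 cDC2 markers (such as Sirpa, the gene of CD172a), and 2360 of 2574 cells of the cDC1 sort had 5 or more of 10 cDC1 markers (such as Xcr1). Cells were assigned by the number of marker genes detected, with no S100 gene among the markers. This left 2561 dendritic cells in the cDC2 sort and 2532 in the cDC1 sort. Of these, 365 and 71 fitted no other dendritic state and had fewer than 5 of 10 markers of the sorted kind. Mature, cycling and some other states were assigned before that count, so more dendritic cells than these can have few such markers. The cDC2 sort also held 147 macrophage-like, 36 B cell-like, 34 nonclassical monocyte-like and 34 neutrophil-like cells, and the cDC1 sort 14 macrophage-like and 3 neutrophil-like cells. Doublets were not removed. Values are CPM of summed UMIs with exact Poisson 95% intervals, ratios carry exact conditional binomial 95% intervals, and both cover counting error only: with 1 library per sort there is no replicate error and no test. A gene counted as measured at 10 CPM or more on either side, and as apart at 2-fold or more.

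Over all kept cells, 4 of the 8 members were higher in the cDC2 sort by 2-fold or more and 0 were lower, where 7.79% of 6610 measured genes were higher and 5.51% lower. S100a4 had 1954 CPM in the cDC2 sort against 265 CPM in the cDC1 sort, 7.38-fold (7.23 to 7.54). S100a6 had 1662 CPM in the cDC2 sort against 565 CPM in the cDC1 sort, 2.94-fold (2.90 to 2.99). Their difference lay in the dendritic cells, where S100a4 was 7.72-fold (7.55 to 7.89) and S100a6 2.97-fold (2.92 to 3.02) higher. S100a8 had 173 CPM in the cDC2 sort against 19.3 CPM in the cDC1 sort, 8.99-fold (8.31 to 9.75). S100a9 had 220 CPM in the cDC2 sort against 25.1 CPM in the cDC1 sort, 8.78-fold (8.19 to 9.42). These are the calprotectin genes, and their difference lay almost wholly in a few neutrophil-like cells, as the values by cell type show. With dendritic cells alone, 2 of the 6 members that were still measured were higher in the cDC2 sort, S100a4 and S100a6, where 7.44% of 6570 measured genes were higher and 5.75% lower. S100a8 and S100a9, at under 5 CPM, no longer counted as measured.

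**Figure D1:**
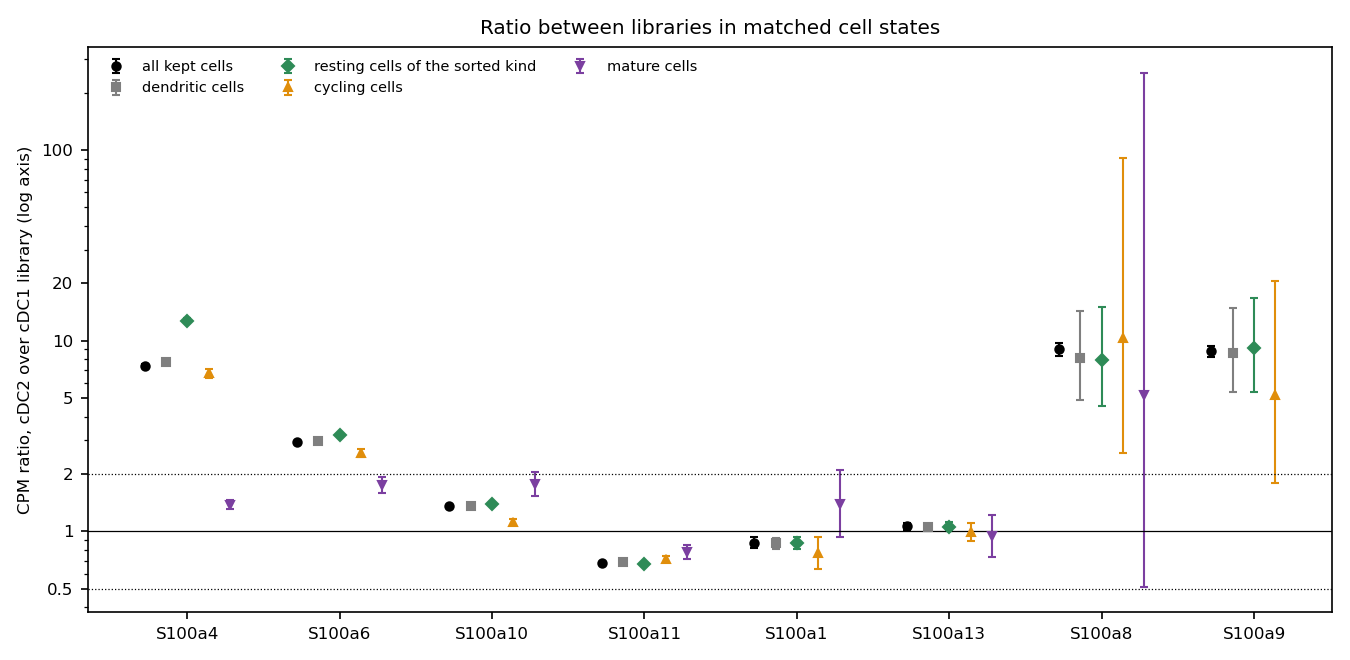
CPM in the cDC2 library over CPM in the cDC1 library (log axis) for each member in 5 matched sets of cells, with exact 95% counting intervals and dotted lines at 2-fold. S100a4 goes from 12.7-fold in resting cells to 1.38-fold in mature cells, while S100a11 stays below 1 in all 5 sets, and the drawn S100a8 and S100a9 points outside the set of all cells rest on 4 to 166 UMIs in the cDC2 library and at most 19 in the cDC1 library.

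S100a8 and S100a9 were found where neutrophil markers were. A cell was called neutrophil-like with 5 or more of 16 markers (such as Retnlg, Csf3r, Mmp9 and Ngp), and the gap was wide: 3 cells of the cDC2 sort had 4 markers, none had 5 or 6, and the 34 neutrophil-like cells had 7 to 15. Their median depth was 2938.5 UMIs in the cDC2 sort and 3025 UMIs in the 3 cells of the cDC1 sort. Neutrophil-like cells held 6541 of 6694 S100a8 UMIs, 97.7%, in the cDC2 sort (exact binomial interval 97.3 to 98.1%) and 659 of 676, 97.5%, in the cDC1 sort (96.0 to 98.5%). For S100a9 the counts were 8325 of 8503 UMIs, 97.9%, in the cDC2 sort and 861 of 880, 97.8%, in the cDC1 sort. In neutrophil-like cells of the cDC2 sort S100a8 reached 35833 CPM, against 3.98 CPM in its dendritic cells, a ratio of 9001 (7608 to 10726). S100a9 reached 45606 CPM there, against 4.75 CPM in dendritic cells, a ratio of 9592 (8226 to 11254). In the 3 neutrophil-like cells of the cDC1 sort the levels were 77767 CPM for S100a8 and 101605 CPM for S100a9, against 0.491 and 0.548 CPM in its dendritic cells.

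Single neutrophil-like cells varied widely. S100a8 and S100a9 together made up from 0.0688% to 33.1% of a cell's UMIs in the cDC2 sort, with a median of 6.90%, and 7.03%, 21.0% and 22.8% in the 3 cells of the cDC1 sort. One cell of the cDC2 sort, with 15 neutrophil markers, gave 4006 UMIs, and another, with 9 markers, gave 1. Of the 34 cells, 8 also had 5 or more of 10 cDC2 markers. The ratio between the libraries for the calprotectin genes thus rests on 34 cells on one side and 3 on the other. With a stricter cell filter the log2 ratio between libraries was 3.90 for S100a8, against 3.17, and 3.86 for S100a9, against 3.13.

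**Figure D2:**
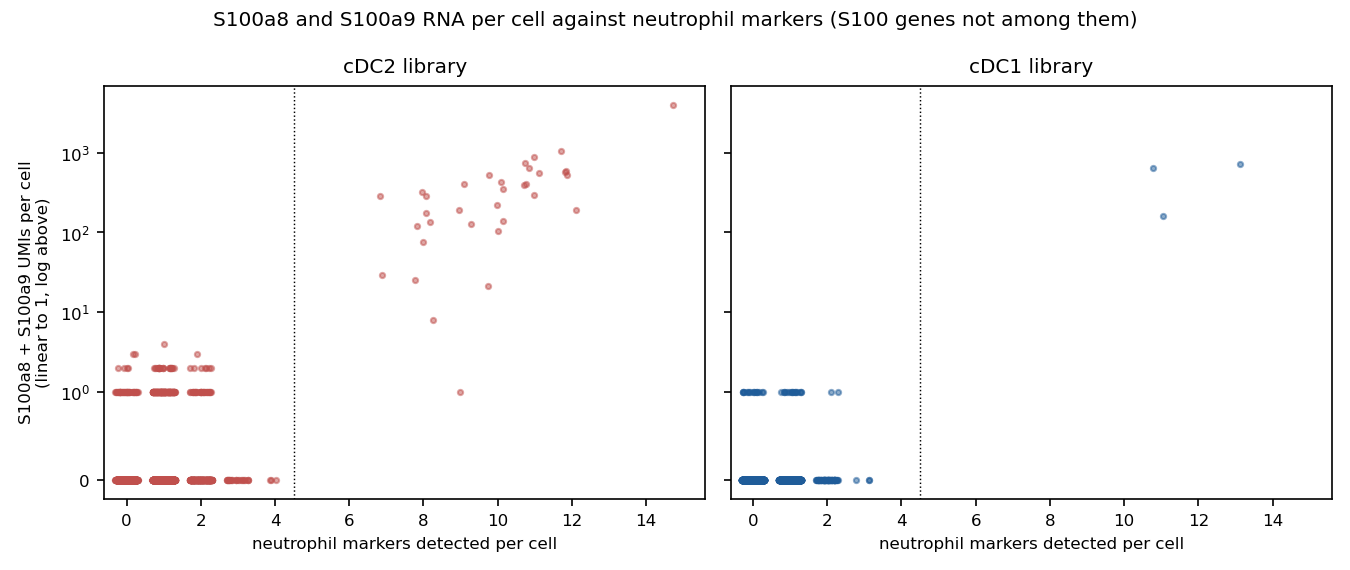
Each point is a cell, with the number of neutrophil markers detected on the x axis (jittered) and the sum of S100a8 and S100a9 UMIs on the y axis (linear to 1, log above), for the cDC2 library on the left and the cDC1 library on the right. Right of the dotted line, cells have 1 to 4006 UMIs. Left of it no cell has more than 4, and the cells with 3 or 4 markers have 0.

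Outside neutrophil-like cells the level was low in both libraries. S100a8 was at 3.98 CPM and S100a9 at 4.63 CPM in the remaining cells of the cDC2 sort, and at 0.485 and 0.542 CPM in those of the cDC1 sort. A UMI of S100a8 was found in 5.18% of these cells in the cDC2 sort and in 0.661% in the cDC1 sort, and no such cell had more than 2 S100a8 UMIs in the cDC2 sort or 1 in the cDC1 sort. By cell state in the cDC2 sort, S100a8 ran from 3.61 CPM (4 UMIs) in mature cells and 3.73 CPM in other cDC2 to 4.22 CPM in cycling cells, 4.44 CPM in macrophage-like cells and 7.63 CPM (15 UMIs, 4.27 to 12.6) in cells with Cd7 and Plac8. Resting cDC2 with a Plac8 UMI had S100a8 at 1.96 times the level of those without (interval 1.19 to 3.10), and S100a9 at 0.938 times (0.520 to 1.59). Nonclassical monocyte-like cells had 3 S100a8 UMIs and 4 S100a9 UMIs. Cells with 0, 1 and 2 neutrophil markers had 8.42, 8.82 and 8.84 CPM of both genes together. The 36 B cell-like cells, a type that should lack both genes, had 0 UMIs of either, which allows up to 9.45 CPM and so does not set them apart.

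S100a9 and Retnlg were found at about the same number per S100a8 UMI inside and outside neutrophil-like cells. For 6 other neutrophil markers of the cDC2 sort the number was higher outside, in part on few UMIs. There were 1.27 S100a9 UMIs per S100a8 UMI in neutrophil-like cells of the cDC2 sort and 1.16 outside them, and in the cDC1 sort 1.31 and 1.12. For Retnlg, a secreted protein of neutrophils, the values were 0.0618 in neutrophil-like cells and 0.0654 outside in the cDC2 sort, and 0.103 and 0.118 in the cDC1 sort. The values outside rest on 10 Retnlg UMIs in the cDC2 sort and 2 in the cDC1 sort. For each UMI inside neutrophil-like cells, 0.0234 (cDC2 sort) and 0.0258 (cDC1 sort) were found outside for S100a8, 0.0214 and 0.0221 for S100a9, and 0.0248 and 0.0294 for Retnlg. Hdc, which makes histamine, was at 0.0867 per S100a8 UMI in neutrophil-like cells of the cDC2 sort and at 1.06 outside, and Cxcr2, a chemokine receptor, at 0.0191 and 0.438 in the same sort. Of the UMIs outside, 1 cell held 49 of 162 for Hdc and 1 cell held 12 of 67 for Cxcr2. Slpi was at 0.0529 inside and 0.196 outside, Csf3r at 0.0339 and 0.183, Mmp9 at 0.0194 and 0.0588, and Lcn2 at 0.0349 and 0.0588. Mmp9 and Lcn2 each rest on 9 UMIs outside, so their values there are imprecise. In the cDC1 sort Csf3r and Mmp9 had no UMI outside, and Lcn2 was at 0.0167 inside and 0.412 outside on 7 UMIs. Whether the S100a8 and S100a9 counts outside neutrophil-like cells come from free RNA was not tested, and they are not read here as expression by dendritic cells.

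The windows from 250 bases before to 50 bases after the RefSeq gene starts (GRCm38.p6) are shown for both genes because they were found in the same cells from 2 transcription units that point at each other. Capitals mark 3 motifs searched on both strands: the TATA box (TATAAA, in 13.6% of 32851 windows of the same length), a C/EBP core (TTNNGNAA, 40.7%) and the PU.1 core (GAGGAA, 28.3%, TTCCTC on the other strand), with no match overlapping another. An AP-1 motif (TGANTCA, 7.81%) was searched too and is in neither.
S100a8 (chr3:90668821-90669120, plus strand): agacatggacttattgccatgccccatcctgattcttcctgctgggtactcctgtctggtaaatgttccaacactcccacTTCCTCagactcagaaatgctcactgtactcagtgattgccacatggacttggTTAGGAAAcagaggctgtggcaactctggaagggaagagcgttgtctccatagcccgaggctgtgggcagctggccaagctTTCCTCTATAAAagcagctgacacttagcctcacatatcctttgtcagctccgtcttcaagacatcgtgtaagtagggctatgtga
S100a9 (chr3:90695672-90695971, minus strand): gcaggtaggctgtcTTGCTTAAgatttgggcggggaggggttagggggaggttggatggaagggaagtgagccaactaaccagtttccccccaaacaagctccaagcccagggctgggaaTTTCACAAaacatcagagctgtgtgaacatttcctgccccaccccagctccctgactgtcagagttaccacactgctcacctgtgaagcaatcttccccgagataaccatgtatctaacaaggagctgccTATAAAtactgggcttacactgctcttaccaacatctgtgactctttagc
The TATA box of S100a8 starts 30 bases before the RefSeq start, directly after 1 of its 2 PU.1 matches, and its C/EBP match starts 117 bases before it. The TATA box of S100a9 begins at the RefSeq start itself, and its 2 C/EBP matches start 236 and 130 bases before it. Both windows therefore hold a TATA box and at least 1 C/EBP match, the latter a pattern present in a large share of all windows. A match is a string of letters, not a measured site.

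S100a6 and S100a11 were also higher in neutrophil-like cells, and S100a4, S100a10 and, on 3 UMIs, S100a1 were lower. Over the dendritic cells of the cDC2 sort, 4 of 8 members were at least 2-fold higher and 3 lower, where 28.5% of measured genes were higher and 17.6% lower. S100a11 had 2531 CPM in neutrophil-like cells against 752 CPM in dendritic cells, 3.37-fold (3.07 to 3.69), and S100a6 3435 CPM against 1658 CPM, 2.07-fold (1.91 to 2.24). S100a4 had 696 CPM in neutrophil-like cells against 1993 CPM in dendritic cells, a ratio of 0.349 (0.291 to 0.415), and S100a10 110 CPM against 705 CPM, a ratio of 0.155 (0.0949 to 0.240). S100a1 rested on 3 UMIs in neutrophil-like cells, a ratio of 0.345 with an interval that reaches past 1 (0.0711 to 1.01). S100a13 was at 104 CPM in neutrophil-like cells and 110 CPM in dendritic cells. None of these moved the totals: neutrophil-like cells held 0.977% of S100a6, 1.61% of S100a11 and 0.168% of S100a4 UMIs in the cDC2 sort.

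S100a4 binds the heavy chain of nonmuscle myosin and is tied to cell movement. It was the member most unlike between the 2 kinds of dendritic cell at rest. Resting cells of the sorted kind (2172 cells of the cDC2 sort, 2170 of the cDC1 sort) are dendritic cells neither mature nor cycling and not gated as the other kind. That gate took cells with 5 or more of 10 markers of the other kind and more of these than of the sorted kind. Resting cells can thus carry some markers of the other kind. They include the 365 and 71 cells left with few markers of the sorted kind, and in the cDC2 sort can include others from states assigned before that count. In resting cells S100a4 had 1940 CPM in cDC2 against 152 CPM in cDC1, 12.7-fold (12.3 to 13.1), and 2 of 6 measured members were higher in cDC2, where 8.37% of genes were higher and 6.43% lower. A UMI of S100a4 was found in 99.1% of resting cDC2 and in 38.5% of resting cDC1. With every cell thinned to 2000 UMIs the shares were 92.1% and 16.4%. The per-cell level had a median of 1795 CPM in resting cDC2 and 0 CPM in resting cDC1, and the 90th percentile in cDC1, 452 CPM, lay below the 10th percentile in cDC2, 765 CPM. No cell type of these libraries is one that should lack S100a4, so no background share can be set beside these, and the part of free RNA in the low level of cDC1 was not tested. In the cDC1 sort, 9 T or NK cell-like cells had 1 S100a4 UMI, 28.5 CPM, and the 3 neutrophil-like cells had 0, which allows up to 354 CPM. Other types were not all low. The 5 B cell-like cells had 11 UMIs, 0.119% of the S100a4 UMIs with 0.117% of all UMIs. For macrophage-like cells these were 322 UMIs, 3.47% and 0.614%, and for fibroblast-like cells 4 UMIs, 0.0431% and 0.258%.

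S100a6, or calcyclin, binds annexins and the ubiquitin-ligase adaptor Cacybp. It had 1783 CPM in resting cDC2 against 560 CPM in resting cDC1, 3.19-fold (3.13 to 3.24). It was detected in 99.4% of resting cDC2 and 85.7% of resting cDC1 (93.2% and 51.1% after thinning), and the part of free RNA in the lower share was not tested for S100a6 either. The levels by cell give medians of 1660 CPM in cDC2 and 346 CPM in cDC1.

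The promoter windows of these neighbours are shown because the 2 genes vary together from cell to cell, with the same motifs in capitals.
S100a4 (chr3:90603520-90603819, plus strand): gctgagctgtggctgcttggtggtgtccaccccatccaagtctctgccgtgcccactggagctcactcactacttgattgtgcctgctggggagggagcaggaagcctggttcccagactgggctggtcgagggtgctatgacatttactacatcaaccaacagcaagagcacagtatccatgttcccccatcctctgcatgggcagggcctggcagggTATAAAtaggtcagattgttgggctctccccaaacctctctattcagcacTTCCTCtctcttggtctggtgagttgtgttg
S100a6 (chr3:90612644-90612943, plus strand): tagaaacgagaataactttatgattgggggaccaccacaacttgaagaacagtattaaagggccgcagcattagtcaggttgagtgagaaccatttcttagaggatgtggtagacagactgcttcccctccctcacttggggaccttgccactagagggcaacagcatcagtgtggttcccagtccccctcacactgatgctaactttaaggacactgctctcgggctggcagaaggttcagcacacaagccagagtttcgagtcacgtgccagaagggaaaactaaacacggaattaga
S100a4 has a TATA box starting 31 bases before its start and a PU.1 match 19 bases after it. S100a6 has none of the 4 motifs in this window, and neither have S100a1 and S100a13. S100a11, whose window is not shown, has 2 AP-1 matches, starting 136 and 38 bases before its start, and 1 PU.1 match. RefSeq windows were at hand for 7 of the 8 members, without S100a10.

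Within resting cells of 1 kind, S100a4 and S100a6 went together. After thinning each cell to 5000 UMIs, Pearson's r was 0.431 over 2098 cDC2 and 0.544 over 2116 cDC1. On log-scaled levels without thinning, S100a6 had the highest r to S100a4 of 4269 genes of at least 20 CPM in cDC2 (0.552) and of 4200 in cDC1 (0.590), and the reverse held as well. The next genes for S100a4 were Cd52 (0.383) in cDC2 and S100a10 (0.282) in cDC1, and for S100a6 it was S100a10 in both (0.389 in cDC2, 0.416 in cDC1). These are descriptions over cells that share a library, and sparse counts hold such values down. S100a13 and S100a1 had r between -0.0284 and 0.107 to each other and to the remaining members in either library after thinning, which at their counts is no finding.

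**Figure D3:**
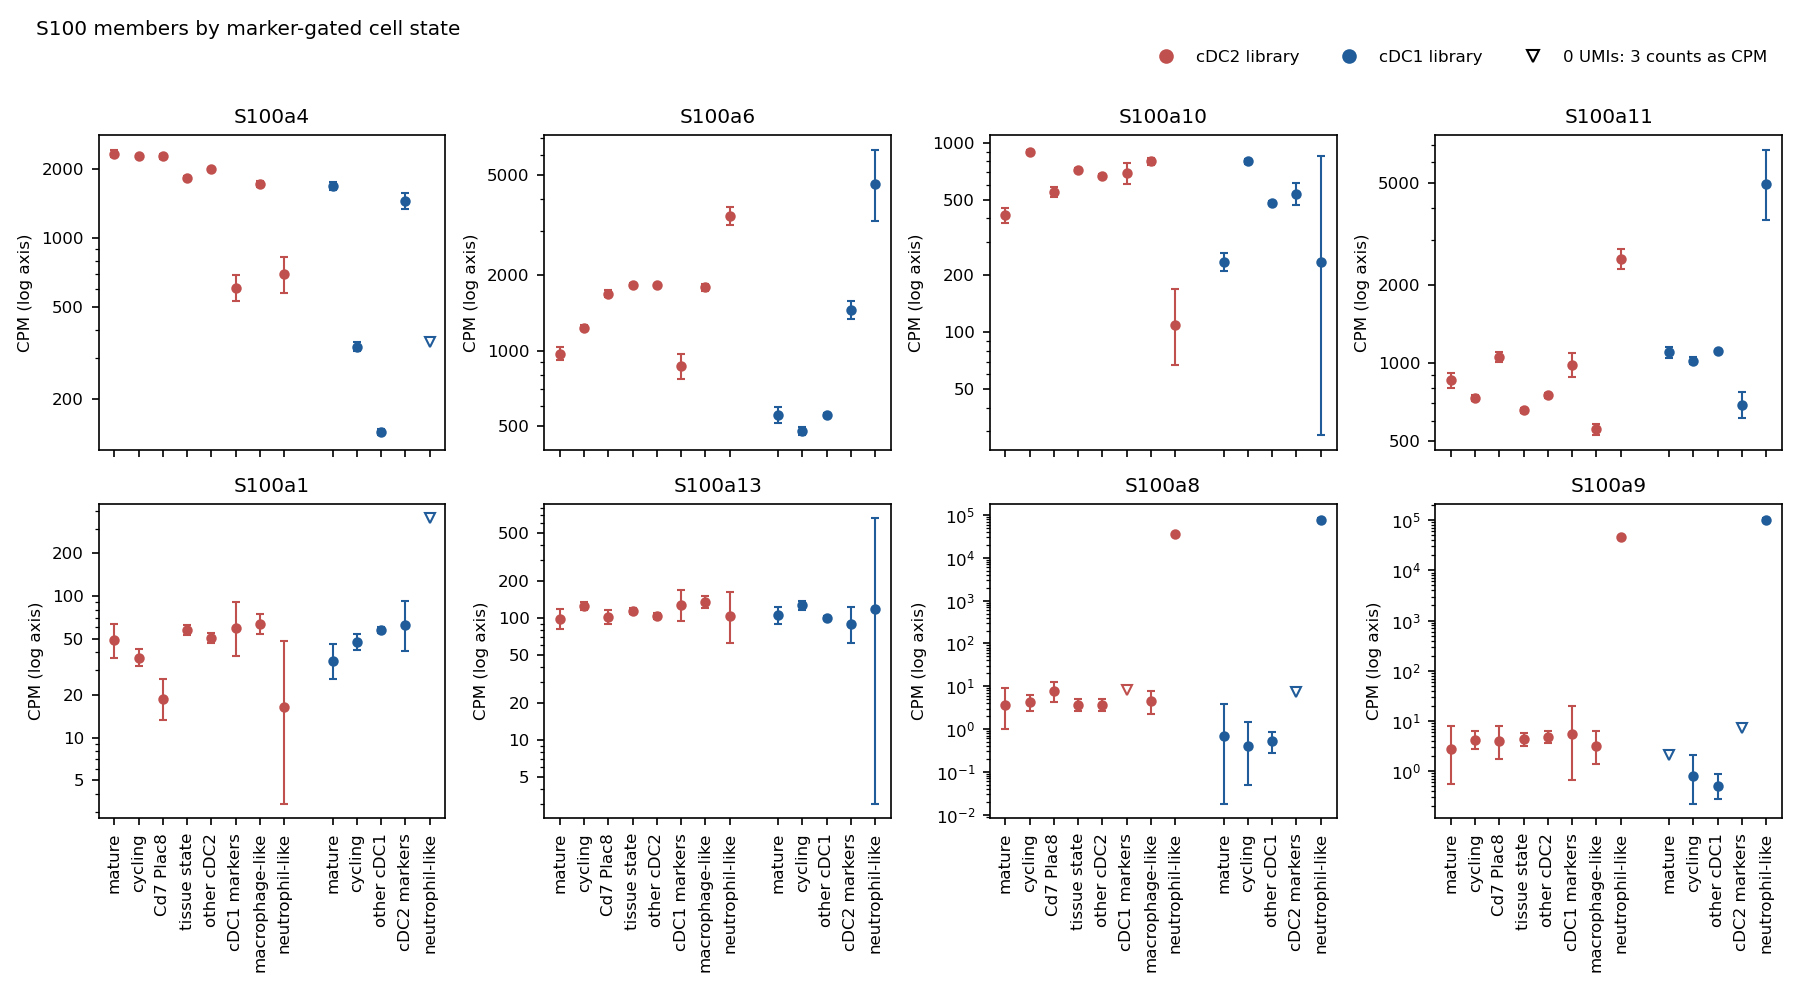
CPM (log axis) of each member in gated cell states, cDC2 library in red on the left and cDC1 library in blue on the right, with exact Poisson 95% intervals. An open triangle marks 0 UMIs, drawn at the CPM that 3 counts would give. S100a4 lies between 609 and 2342 CPM in every cDC2-library state drawn and at 142 CPM in other cDC1, and S100a8 and S100a9 stand out in neutrophil-like cells alone among the states drawn.

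In S100a4, S100a6 and S100a11, the few dendritic cells gated by markers of the other kind differed from the rest of their library in the direction of that kind. The other measured members did not all do so, and none of them differed by 2-fold. S100a13 went the other way in both sets, on 37 UMIs in the cDC1 sort and 47 in the cDC2 sort. S100a1 did so in the cDC1 sort, on 26 UMIs, and S100a10 slightly in the cDC2 sort, on 254 UMIs. In the cDC1 sort, 25 cells with cDC2 markers had 1460 CPM of S100a4, against 142 CPM in the 2099 other cDC1, 10.3-fold (9.40 to 11.2). Their S100a6 was at 1450 CPM against 556 CPM, 2.61-fold (2.40 to 2.83), so 2 of 6 members were higher where 12.4% of genes were. In the cDC2 sort, 28 cells with cDC1 markers had 609 CPM of S100a4, against 1940 CPM in resting cDC2, a ratio of 0.314 (0.274 to 0.358). These 28 cells were uneven in S100a4: 18 had a UMI, the per-cell median was 96.1 CPM and the 90th percentile 1874 CPM. Their S100a6 was at 865 CPM against 1783 CPM, a ratio of 0.485 (0.433 to 0.542), so 2 of 6 were lower where 9.73% of genes were. S100a11, the member higher in cDC1, had 691 CPM in the 25 cells against 1117 CPM in other cDC1 (0.619), and 985 CPM in the 28 cells against 748 CPM in resting cDC2 (1.32). In S100a4, S100a6 and S100a11, cells with markers of the 2 kinds thus differed in the same direction within each library as between libraries, on small groups of cells. The 71 cells of the cDC1 sort with few cDC1 markers had S100a4 at 620 CPM.

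Maturation is the program by which dendritic cells turn on Ccr7, leave the tissue and present antigen in the lymph node. Cells were gated as mature with 8 or more of 12 markers (Ccr7, Fscn1, Cacnb3, Apol7c and others), which took 81 cells of the cDC2 sort and 102 of the cDC1 sort. The gate is a range and not a type: 100 cells of the cDC2 sort and 22 of the cDC1 sort had exactly 1 marker fewer than required. In the cDC1 sort S100a4 had 1696 CPM in mature cells against 172 CPM in dendritic cells neither mature nor cycling, 9.89-fold (9.41 to 10.4). S100a10 had 235 CPM in mature cells against 488 CPM, a ratio of 0.481 (0.431 to 0.536), which no longer passed 2-fold with 1 marker fewer required. So 1 of 6 measured members was higher, where 13.8% of genes were, and 1 lower, where 12.5% were. S100a6 had 555 CPM in mature cells and 573 CPM in the others, S100a11 1103 and 1106 CPM, S100a13 105 and 101 CPM, and S100a1 34.9 and 57.3 CPM.

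S100a4 of the cDC2 sort had 2342 CPM in mature cells against 1922 CPM in the others, 1.22-fold (1.17 to 1.27). S100a6 had 970 CPM in mature cells against 1771 CPM, a ratio of 0.548 (0.515 to 0.582), which passed 2-fold with 1 marker more required. S100a10 had 416 CPM against 678 CPM, a ratio of 0.613 (0.558 to 0.673), S100a11 858 against 751 CPM, S100a13 99.2 against 108 CPM and S100a1 48.7 against 49.8 CPM. None of the 6 was 2-fold apart, where 10.1% of genes were higher and 6.39% lower. S100a10 was thus below the other dendritic cells in mature cells of both libraries, whereas the S100a4 ratio was large in cDC1 and small in cDC2, a difference between 1 library each that was not tested.

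For S100a4 and S100a6 the ratio between the libraries was smaller in mature cells than at rest, and for S100a10 it was larger. The median log2 ratio of the 6 measured members was 0.47 in mature cells and 0.28 at rest. S100a4 had 2342 CPM in mature cells of the cDC2 sort and 1696 CPM in those of the cDC1 sort, 1.38-fold (1.31 to 1.46). S100a6 had 970 against 555 CPM, 1.75-fold (1.59 to 1.92), and S100a10 416 against 235 CPM, 1.77-fold (1.53 to 2.04). None of 6 members was 2-fold apart, where 10.1% of genes were higher and 5.55% lower. S100a4 was found in 96.3% of mature cells of the cDC2 sort and 89.2% of those of the cDC1 sort (87.7% and 81.4% after thinning). The per-cell median was 2206 CPM in the cDC2 sort and 1353 CPM in the cDC1 sort.

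**Figure D4:**
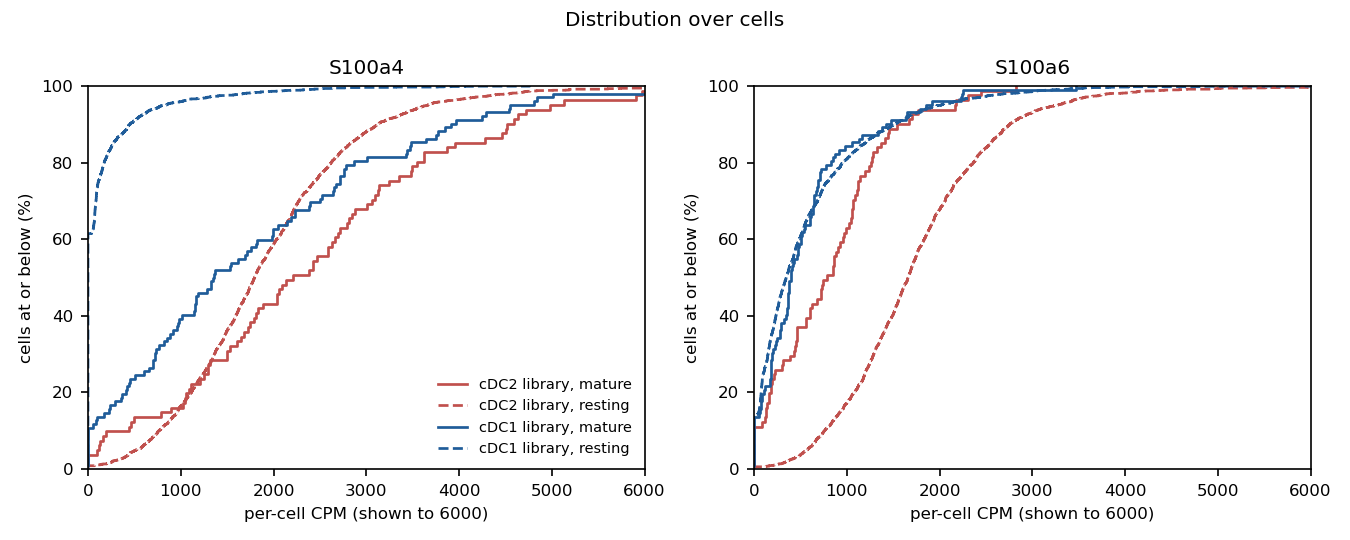
Cumulative share of cells (y axis, percent) at or below a per-cell CPM (x axis, on a linear scale) for S100a4 on the left and S100a6 on the right, with mature cells as solid and resting cells of the sorted kind as dashed lines, cDC2 library in red and cDC1 library in blue. For S100a4 the mature cDC1 curve (median 1353 CPM) lies near those of the cDC2 library (medians 2206 and 1795 CPM) and far from resting cDC1 (median 0 CPM), whereas for S100a6 both cDC1 curves lie close together (medians 396 and 346 CPM) and the mature cDC2 curve (791 CPM) is nearer to them than the resting one (1660 CPM).

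The mature gate of each sort could hold mature cells of the other kind, so it was divided by markers, first in the cDC1 sort. In the 70 mature cells with at least 3 cDC1 markers and more of these than of cDC2 markers, S100a4 had 1606 CPM against 152 CPM in resting cDC1, 10.5-fold (9.96 to 11.2), and S100a10 had a ratio of 0.467. In the 23 mature cells with at least 5 cDC1 markers and 0 cDC2 markers S100a4 had 1134 CPM (1034 to 1242), and in the 12 with no more cDC1 than cDC2 markers 2358 CPM (2126 to 2608). Those 12 cells had 0 Xcr1 UMIs, and 11 of them had a Sirpa UMI. The S100a4 level therefore differed with the markers inside the gate, and was above resting cDC1 in each of these sets. By the same rule, 33 mature cells of the cDC2 sort had S100a4 at 2200 CPM and S100a6 at 1170 CPM, ratios of 1.13 and 0.656 to resting cDC2. The 26 with no more cDC2 than cDC1 markers had S100a4 at 2230 CPM and S100a6 at 720 CPM (619 to 832). These 26 cells had 0 Xcr1 UMIs and 1 Cadm1 UMI, and 12 of them had a Sirpa UMI, so their markers do not make them cDC1. The S100a6 level of mature cells thus also differed with the markers inside the gate of the cDC2 sort. This division was added after the data had been seen.

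Over resting cells of the sorted kind and mature cells, ordered by the number of maturation markers, S100a4 climbed step by step in the cDC1 sort. In cells with 0 to 1, 2 to 3, 4 to 5, 6 to 7, 8 to 9 and 10 to 12 markers, S100a4 had 92.9, 120, 214, 593, 1018 and 1973 CPM. The last 3 steps hold 43, 30 and 72 cells. In the cDC2 sort it had 1874, 1838, 1964, 2001, 2106 and 2528 CPM. The level of S100a10 over the same steps was 463, 503, 480, 389, 276 and 218 CPM in the cDC1 sort, and S100a6 in the cDC2 sort had 1697, 1850, 1792, 1691, 1114 and 856 CPM. S100a4 was thus above its level at 0 to 1 markers well before the gate for mature cells in cDC1, whereas the lower values of S100a6 in cDC2 lay at 8 or more markers. Resting cDC1 with a UMI of Ccr7 (286 cells) had S100a4 at 332 CPM, against 123 CPM in the 1884 without one, 2.71-fold (2.54 to 2.89). In resting cDC2 the values were 1978 CPM in 1372 cells with Ccr7 and 1868 CPM in 800 without. Depth moved with this split, with a median of 13112.5 UMIs in the resting cDC1 with Ccr7 and 12437.5 in those without, and its part in the difference was not tested. Resting cDC1 here include the 71 cells with few cDC1 markers, which held 3.87% of the S100a4 UMIs of their library with 1.65% of all UMIs. Resting cells were not divided by kind, so the part of such cells in the climb and in the Ccr7 split was not tested.

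**Figure D5:**
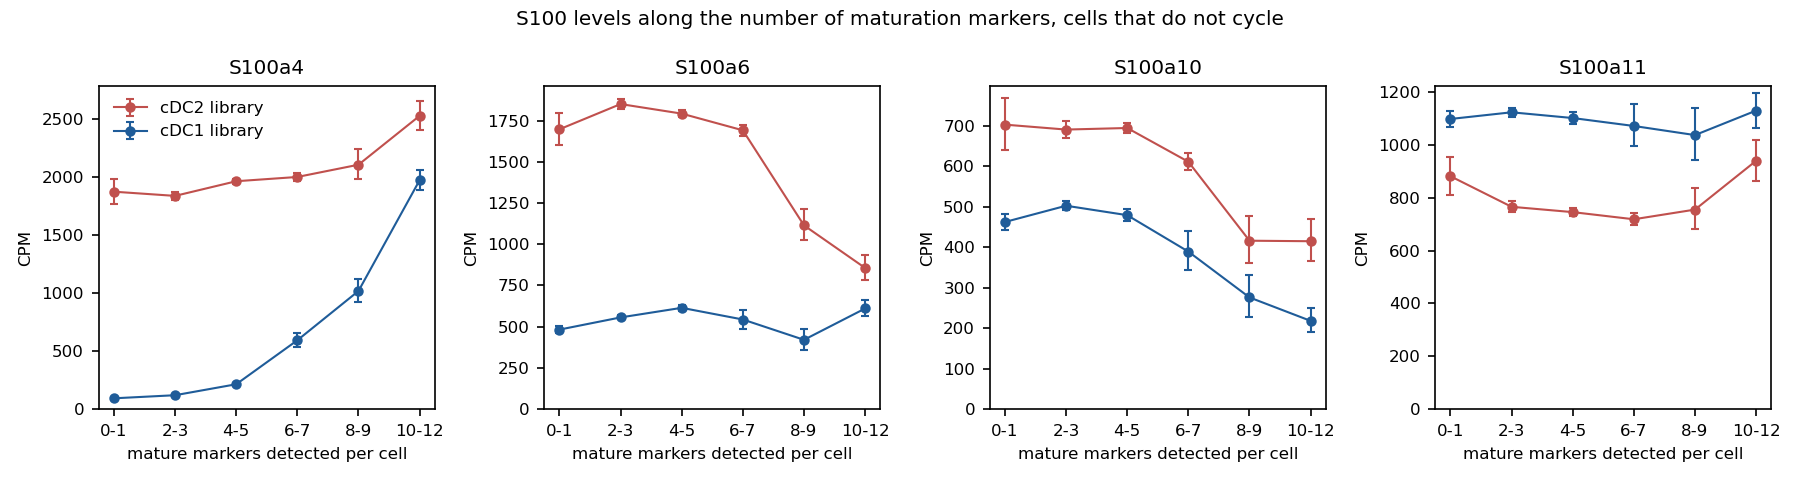
CPM of S100a4, S100a6, S100a10 and S100a11 (y axes from 0) in resting cells of the sorted kind and mature cells, binned by the number of 12 maturation markers detected (x axis), cDC2 library in red and cDC1 library in blue, with exact Poisson 95% intervals. S100a4 climbs to 1973 CPM in the cDC1 library, S100a6 is lowest in the cDC2 library at 8 or more markers, S100a10 is lowest in both libraries at 8 or more, and S100a11 stays between 719 and 1130 CPM.

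Mature cells are few but held much of the S100a4 RNA of the cDC1 sort. They made up 4.09% of its UMIs and held 26.2% of its S100a4 UMIs, while the 2099 other cDC1 made up 77.8% and held 41.9%. Cells with cDC2 markers held 6.53%, macrophage-like cells 3.47% and cycling cells 17.9%. Mature cells of the cDC2 sort held 3.44% of S100a4 UMIs with 2.87% of all UMIs. The 1% of cells richest in S100a4 held 3.99% of its UMIs in the cDC2 sort and 17.4% in the cDC1 sort.

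Cycling cells (5 or more of 12 markers such as Mki67 and Top2a) numbered 280 in the cDC2 sort and 235 in the cDC1 sort, and their median depth, 20141 and 20483 UMIs, was above that of the other states. None of the 6 measured members was 2-fold apart from dendritic cells neither mature nor cycling, in the cDC2 sort (7.36% of genes higher, 0.686% lower) or in the cDC1 sort (9.47% higher, 0.279% lower). S100a4 came nearest, with 337 CPM in cycling against 172 CPM in other cells of the cDC1 sort, 1.97-fold (1.86 to 2.08), which passed 2-fold under a stricter cell filter and with 1 marker fewer, and 2275 against 1922 CPM in the cDC2 sort, 1.18-fold. S100a10 had 897 against 678 CPM in the cDC2 sort, 1.32-fold (1.28 to 1.37), and 802 against 488 CPM in the cDC1 sort, 1.64-fold (1.58 to 1.70). S100a6 had 1234 against 1771 CPM in the cDC2 sort, a ratio of 0.697, and 478 against 573 CPM in the cDC1 sort, a ratio of 0.835. Between libraries, cycling cells had S100a4 at 2275 CPM in the cDC2 sort against 337 CPM in the cDC1 sort, 6.75-fold (6.41 to 7.10), and S100a6 2.58-fold apart, where 6.75% of genes were higher and 6.09% lower.

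S100a10, or p11, has no calcium switch and forms a fixed complex with annexin A2 that holds Ahnak and the plasminogen receptor Plgrkt at the membrane. At rest it had 677 CPM in resting cDC2 and 487 CPM in resting cDC1, 1.39-fold (1.36 to 1.42). Across gated states of at least 50 cells it ran from 416 CPM (mature) to 897 CPM (cycling) in the cDC2 sort and from 235 CPM (mature) to 802 CPM (cycling) in the cDC1 sort, so mature cells were lowest and cycling cells highest in both. Its partner Anxa2 was not lower in mature cells. Against other dendritic cells it had 784 against 606 CPM in the cDC2 sort, 1.29-fold, and 948 against 767 CPM in the cDC1 sort, 1.24-fold. Plgrkt was higher in mature cells of both, 85.7 against 33.2 CPM in the cDC2 sort, 2.58-fold, and 69.7 against 15.4 CPM in the cDC1 sort, 4.51-fold. Ahnak had ratios of 0.751 and 0.588.

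S100a11, or calgizzarin, binds annexin A1 and takes part in membrane repair. It was the highest member in resting cDC1, at 1112 CPM against 748 CPM in resting cDC2, a ratio of cDC2 over cDC1 of 0.673 (0.661 to 0.685). It was detected in 99.4% of resting cDC1 and in nearly as large a share of resting cDC2. Over states of at least 50 cells, in the cDC2 sort it ran from 554 CPM in macrophage-like cells and 658 CPM in the Mrc1 and Il1rl1 state to 1055 CPM in the Cd7 and Plac8 state, and in the cDC1 sort from 889 CPM in cells with few cDC1 markers to 1117 CPM in other cDC1. Anxa1 was lower in mature cells, with 75.7 against 190 CPM in the cDC2 sort, a ratio of 0.398, and 65.5 against 303 CPM in the cDC1 sort, a ratio of 0.216, while S100a11 did not differ by 2-fold in either.

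S100a13 aids the export of Fgf1 and Il1a from the cell, and S100a1 is known as a regulator of calcium handling in muscle. S100a13 was the flattest member: 108 CPM in resting cDC2 and 102 CPM in resting cDC1, 1.06-fold, and between 99.2 and 135 CPM in all states of at least 50 cells in both libraries. Of its cargo, Fgf1 was found with 13 UMIs in dendritic cells of the cDC2 sort and 6 in those of the cDC1 sort, and Il1a had 36.8 and 27.6 CPM. S100a1 had 49.6 CPM in resting cDC2 and 57.3 CPM in resting cDC1, a ratio of 0.867 (0.806 to 0.932). Its divergent neighbour S100a13 did not go with it in every state. In the Cd7 and Plac8 state of cDC2 S100a1 had 18.8 CPM (37 UMIs) against 52.0 CPM in other resting cDC2, a ratio of 0.362 (0.254 to 0.501), and S100a13 had 102 against 108 CPM.

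The Cd7 and Plac8 state (168 cells of the cDC2 sort with 4 or more of Cd7, Plac8, Ifitm6, Ms4a6b and Ifitm3) and the Mrc1 and Il1rl1 state (734 cells with 3 or more of 6 markers, the tissue state in the plot of levels) are ranges within resting cDC2. Over all kept cells of that sort, whatever their state, 299 and 768 were 1 marker short. S100a1 was the 1 of 6 measured members that was lower in the first, where 5.25% of genes were lower and 5.74% higher. S100a11 had 1055 CPM there against 725 CPM, 1.46-fold (1.39 to 1.52), S100a4 2276 against 1914 CPM, 1.19-fold, S100a6 1683 against 1791 CPM and S100a10 552 against 687 CPM. In the Mrc1 and Il1rl1 state no member was 2-fold apart, where 1.04% of genes were higher and 0.211% lower, and the ratios lay between 0.819 for S100a11 and 1.27 for S100a1. In macrophage-like cells of the cDC2 sort, over its dendritic cells, no member was 2-fold apart either, where 5.15% of genes were higher and 1.33% lower: S100a4 had 1728 against 1993 CPM, S100a6 1782 against 1658 CPM and S100a11 554 against 752 CPM.

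The order of the members differed between the 2 kinds of cell. In resting cDC2 it was S100a4 (1940 CPM), S100a6 (1783), S100a11 (748), S100a10 (677), S100a13 (108), S100a1 (49.6), S100a9 (4.94) and then S100a8. In resting cDC1 it was S100a11 (1112 CPM), S100a6 (560), S100a10 (487), S100a4 (152), S100a13 (102), S100a1 (57.3), S100a9 (0.538) and S100a8 (0.502). Only S100a9 and S100a8 had overlapping counting intervals as neighbours in either order. In mature cells of the cDC1 sort S100a4 (1696 CPM) stood first, ahead of S100a11 (1103 CPM), and in those of the cDC2 sort S100a6 (970 CPM) and S100a11 (858 CPM) overlapped as well. The kit counts the 3' ends of transcripts, so these levels do not scale with gene length, though genes may be captured with unequal efficiency.

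Among the proteins that S100 members bind, Myh9, the myosin heavy chain partner of S100a4, had 390 CPM in resting cDC2 and 259 CPM in resting cDC1, a ratio with an interval of 1.46 to 1.55, and in mature against other cells 1.24-fold in the cDC2 sort and 1.67-fold in the cDC1 sort. Cacybp, the partner of S100a6, had 51.9 CPM in resting cDC2 and 82.7 CPM in resting cDC1, a ratio of 0.628. Of 28 listed partner and receptor genes, 21 were measured in the dendritic cells, with 2 higher in the cDC2 sort and 2 lower, near the shares of all genes (7.44% and 5.75%). Plgrkt (36.9 against 17.6 CPM, 2.09-fold) and Cd69 (70.1 against 14.7 CPM, 4.77-fold), a lymphocyte activation marker that also binds S100a8 with S100a9, were higher. Anxa6 (122 against 252 CPM, 0.484) and Cd36, a scavenger receptor (14.9 against 268 CPM, 0.0556), were lower. The median log2 ratio of the partners was -0.14, against 0.03 over all measured genes.

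In mature cells of the cDC2 sort 6 of 22 measured partners were higher than in other dendritic cells and 2 lower, where 10.1% of all genes were higher and 6.39% lower. Among those of the cDC1 sort 4 of 22 were higher and 3 lower, where the shares of all genes were 13.8% and 12.5%. Anxa3 led in both, with 480 against 10.8 CPM in the cDC2 sort, 44.2-fold (38.3 to 51.1), and 697 CPM against under 10 CPM in the cDC1 sort, 99.6-fold (85.5 to 117). Anxa4 had 3.42-fold and 5.88-fold, and Ly96, the co-receptor of Tlr4, 5.16-fold (20.7 CPM) and 3.51-fold (16.7 CPM). Cd36 was 2.07-fold higher in mature cells of the cDC2 sort. Il1a had ratios of 0.452 and 0.212, and Anxa6 0.205 in the cDC1 sort. Of the receptors for released S100a8 and S100a9, Bsg, or CD147, had 151 CPM in dendritic cells of the cDC2 sort and 118 CPM in those of the cDC1 sort, whereas Tlr4 had 1.37 CPM in the cDC2 sort and 0.722 CPM in the cDC1 sort, and Ager 1.78 and 2.68 CPM.

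Over 11 sums of at least 50 cells (7 states of the cDC2 sort and 4 of the cDC1 sort), the genes whose log2(CPM + 10) was closest to S100a4 were Il2rg (Pearson's r 0.98), Ctsh, Tmem176b, Tmem176a and Scpep1 (r 0.96 for the last). For S100a6 they were Fcer1g (0.98), Tyrobp, Rnf149, Ctsa and Plaur (0.96). For S100a10 they were Minos1 (0.98), Rnpep, Cox8a, Ddost and Ddrgk1 (0.95). For S100a9 they were Il1r2 (0.98), H2-DMb2, Prkcb, Dhx40 and Mid1 (0.93), but S100a9 was between 0 and 7.32 CPM in these sums, the low level given for cells outside the neutrophil-like ones. These are likenesses among 3394 genes over 11 points that share 2 libraries, in which the difference between libraries is the main contrast.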

How the data were processed

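The values used here are UMI counts for each gene in each barcode, which the authors deposited as a matrix for each of the 2 libraries without normalization. Per the labels' protocols, lung was dissociated with dispase, cells were sorted by flow cytometry, and the 10x Chromium v3.1 chemistry was used for both libraries, sequenced together. Per the submitters' processing notes, Cell Ranger 3.2 and mm10 were used (the file headers give software version 3.0.2), and Seurat is named without a role. The sources used here give neither the annotation release nor how barcodes were selected before deposit.

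A cell needed 500 genes, 1000 UMIs and no more than 10% of UMIs from mitochondrial genes to be kept, which left 2835 of 3045 barcodes in the cDC2 library and 2574 of 2939 in the cDC1 library. No doublet caller was relied on, and doublets stayed in. Cells were gated by the number of detected markers, with the number required set from the distribution of markers per cell and without the S100 genes. UMIs were summed per state and scaled to CPM. Intervals are exact at the 95% level (Poisson for CPM, Clopper-Pearson for shares, conditional binomial for ratios). A count of 0 allows up to 3 counts, and no fold is given when both sides are at or under that. A gene entered a comparison with 10 CPM on 1 side and was called apart from 2-fold upward. The share of all measured genes past the same limits is given beside the counts of members in the main setting, and not for the alternatives. Shares of cells with a UMI were also computed after thinning each cell to 2000 UMIs.

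The members were named in every state of at least 50 cells and in neutrophil-like cells. Likeness is Pearson's r of log2(CPM + 10) over state sums, with the 5 closest genes of at least 50 CPM named. The single-marker splits, the closest genes from cell to cell and the division of mature cells by kind were chosen after values had been seen. The members and gene lists were chosen with earlier results of these data known. Alternatives were other cell filters, 1 marker more or fewer for every gate, other scalings and other minimum CPM. The procedure was tested on simulated data. Promoter windows are RefSeq's (GRCm38.p6), and gene positions are from GENCODE vM21. Software was Python 3.11.15 with numpy 2.4.6, scipy 1.17.1, pandas 2.3.3 and matplotlib 3.10.9. One partner gene is counted in its list and not reported here by name.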

Additional observations from a re-analysis of the deposited data

Results flagged for a closer look

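Barcodes left out by the cell filter carried more S100a8 and S100a9 than the kept dendritic cells of the cDC2 library. The 210 barcodes removed from it, 206 of them over the mitochondrial limit, had S100a8 at 24.3 CPM (14 UMIs, 13.3 to 40.8), against 3.98 CPM in kept dendritic cells, 6.11-fold (3.26 to 10.6). They had S100a9 at 53.9 CPM (31 UMIs, 36.6 to 76.5), against 4.75 CPM, 11.3-fold (7.46 to 16.7). They stand out because no comparison above uses these barcodes. Of the 210, 1 had 5 or more neutrophil markers, 1 barcode held 8 of the 14 S100a8 UMIs, and 1 barcode held 14 of the 31 S100a9 UMIs, so both levels rest in large part on single barcodes. In the 365 barcodes removed from the cDC1 library the counts were 2 UMIs of S100a8 and 3 of S100a9.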

How the results depend on the processing

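Under 2 other cell filters and 3 other scalings, no member's ratio between libraries over all cells changed sign (40 alternative values over the 8 members). The 4 members higher over all cells were 4 under each of 7 alternatives. The S100a8 and S100a9 ratios moved most: the stricter filter (1000 genes, 3000 UMIs, 5% mitochondrial) gave log2 values of 3.90 and 3.86, and the mean of per-cell CPM 2.42 and 2.45, against 3.17 and 3.13 in the main setting. That filter also gave 97.3% (cDC2 library) and 95.9% (cDC1 library) of S100a8 and S100a9 UMIs in neutrophil-like cells, against 97.8% and 97.7%. In dendritic cells, dropping the minimum of 10 CPM gave 4 members 2-fold apart instead of 2, the added ones being S100a8 and S100a9 at under 5 CPM. For mature cells of the cDC2 library, 1 member (S100a6, lower) instead of 0 passed 2-fold with 1 more marker required or with the mean of per-cell CPM. For those of the cDC1 library, 1 marker fewer left 1 member (S100a4) instead of 2. For cycling cells of the cDC1 library, the stricter filter or 1 marker fewer gave 1 (S100a4, higher) instead of 0. S100a6 in mature cDC2, S100a10 in mature cDC1 and S100a4 in cycling cDC1 thus lie close to the 2-fold limit. No paired analysis was possible because each sort is 1 library with no replicate. Small states limit precision: the 81 mature cells of the cDC2 sort give 1109063 UMIs and the 3 neutrophil-like cells of the cDC1 sort 8474.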
